A study of Mus musculus with 12 samples.

Results

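The genes described here are 10 secreted, noncollagen proteins of the extracellular matrix that are induced when cardiac fibroblasts become activated: Postn, Thbs1, Thbs4, Spp1, Tnc, Sparc, Fn1, Timp1, Lox and Cilp. The rule that chose them names the genes and uses no measured value, although it was written with earlier results of these data known. They are 10 of the 53700 gene identifiers of a table of read counts. RNA came from the hearts of 12 mice. The 6 control mice (ac-WT, genotype CYB5R3 wt/wt) and the 6 mice with a cardiomyocyte knockout (ac-CYB5R3–KO, genotype CYB5R3 fl/fl) all carried the Myh6-CreERT2 transgene, and all were injected with tamoxifen at 33 mg/kg/d for 5 days from 10 to 13 weeks of age. Hearts were taken 5 days after the last injection. The Myh6 promoter drives Cre in cardiomyocytes, so fibroblasts and other cells of the heart were not meant to lose the floxed gene, and both groups had an active Cre. CYB5R3 is a flavoprotein reductase that passes electrons from NADH to cytochrome b5 and coenzyme Q. The question here was whether its loss from cardiomyocytes came with a fibroblast matrix response at this early time.

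Matricellular proteins sit in the matrix and signal to cells more than they bear load. They bind integrins, growth factors and collagen, are scarce in the healthy adult heart, and return after infarction, pressure overload and inflammation. Periostin marks activated cardiac fibroblasts. Fibronectin is the provisional scaffold on which new collagen is laid down, lysyl oxidase crosslinks that collagen, and TIMP1 inhibits the metalloproteinases that degrade it. Most of these transcripts in the heart come from fibroblasts, with osteopontin (Spp1) also made by macrophages. In RNA from whole tissue, fewer cells of a type and less RNA per cell cannot be told apart.

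Promoter windows of RefSeq (build GRCm38.p6, 250 bases before and 50 after each annotated start) were given for 7 of the 10 genes, in 10 windows. The 250 bases before the start are shown for Postn and Sparc, whose fold changes over all mice were positive, and for Tnc and Spp1, whose fold changes were the negative ones. Among the controls, each of these genes was lowest in the same mouse. Each is written 5′ to 3′ on the gene's strand, and capitals mark matches. The TATA box was searched as TATAAA. The SMAD motif was searched as CAGAC and appears as GTCTG where it lies on the other strand.
Postn (second of 2 windows, chr3:54360857-54361106, plus strand): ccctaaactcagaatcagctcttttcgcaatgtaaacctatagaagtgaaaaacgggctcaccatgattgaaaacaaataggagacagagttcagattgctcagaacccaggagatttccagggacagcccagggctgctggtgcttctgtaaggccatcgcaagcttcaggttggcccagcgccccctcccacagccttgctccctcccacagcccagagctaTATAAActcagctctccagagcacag
Sparc (chr11:55420081-55420330, minus strand): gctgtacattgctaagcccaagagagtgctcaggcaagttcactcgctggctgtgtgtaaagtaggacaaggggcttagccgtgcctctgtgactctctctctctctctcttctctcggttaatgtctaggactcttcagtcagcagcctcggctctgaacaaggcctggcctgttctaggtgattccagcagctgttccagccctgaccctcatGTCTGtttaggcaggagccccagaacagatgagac
Tnc (second of 2 windows, chr4:64046937-64047186, minus strand): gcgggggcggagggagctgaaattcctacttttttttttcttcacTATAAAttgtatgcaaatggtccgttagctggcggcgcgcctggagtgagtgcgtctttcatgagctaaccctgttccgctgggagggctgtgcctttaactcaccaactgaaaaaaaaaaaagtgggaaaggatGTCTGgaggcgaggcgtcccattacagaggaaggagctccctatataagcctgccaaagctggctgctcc
Spp1 (second of 2 windows, chr5:104435942-104436191, plus strand): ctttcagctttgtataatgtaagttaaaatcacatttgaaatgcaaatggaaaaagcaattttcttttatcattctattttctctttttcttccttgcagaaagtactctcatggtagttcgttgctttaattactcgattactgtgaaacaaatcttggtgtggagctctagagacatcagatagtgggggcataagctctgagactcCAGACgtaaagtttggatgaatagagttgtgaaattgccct
In Postn, TATAAA began 26 bases before the start. In Tnc TATAAA began 205 bases and GTCTG 70 bases before the start. Sparc held GTCTG 35 bases and Spp1 held CAGAC 41 bases before the start. In the first window of each gene, on either strand, CAGAC occurred in 5 of 7 genes, TATAAA in 2 and the AP-1 motif TGANTCA in 0, while over all 32851 windows of the RefSeq table the shares were 49.6%, 13.6% and 7.81%. No match overlapped another, and these matches describe the windows only.

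Libraries held between 43393183 and 53754284 counted reads, and the groups' ranges overlapped. Levels are given as CPM, the counts of a gene for each 1000000 reads after TMM scaling. Cyb5r3 itself was at 126 ± 38.4 CPM in ac-WT and 53.7 ± 9.07 CPM in ac-CYB5R3–KO hearts (SD, n = 6 each), and it fell by 1.22 ± 0.19 (SE) on the log2 scale (edgeR adjusted p = 0.0450), with no overlap of the groups. The libraries of ac-WT mice 2 and 3 stood apart, with TMM factors of 0.570 and 0.723 against 0.988 to 1.22 in the other 10 libraries. Their 20 most abundant genes took 62.3% and 59.3% of all reads, against 41.5% to 51.3% in the others. Comparisons of the 10 genes are therefore given with and without these 2 mice. Without them Cyb5r3 fell by 1.41 ± 0.15 on the log2 scale (edgeR adjusted p = 0.00417). All 10 genes passed the filter on low counts, and their lowest count in any library ran from 45 (Spp1) to 13960 (Sparc).

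Across the 10 genes, 8 had a positive and 2 a negative log2 fold change of ac-CYB5R3–KO over ac-WT, and 0 of 10 passed an adjusted p under 0.05 in edgeR, where 0.101% of the 17847 genes tested did. At an unadjusted p under 0.01 there were 0 of 10 against 4.59% of all genes, and at an unadjusted p under 0.05 there was 1 of 10 (Thbs1) against 14.6%. The lowest adjusted p was 0.244. The ranges of the 2 groups overlapped for all 10 genes, while 1.55% of all genes showed no overlap. The median log2 fold change was 0.44 over the 10 genes and -0.0074 over all genes. Without ac-WT mice 2 and 3 it was -0.015 against 0.016, with 4 genes positive and 6 negative. One gene, Tnc, then had an unadjusted p under 0.01 (2.33% of all genes) and 0 of 10 an adjusted p under 0.05 (0.0383% of all genes), the edgeR adjusted p-values of the 10 running from 0.344 to 0.995. A difference between the genotypes was thus not detected by this test for any of the 10 genes, and the sign of their median rested on 2 control hearts. Its size depended on the tool, with 0.91 and 9 positive genes in limma-voom, which works on log values, where Postn had a log2 fold change of 1.14, Fn1 of 1.13 and Lox of 1.49 (limma-voom adjusted p = 0.464, 0.444 and 0.359).

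**Figure D1:**
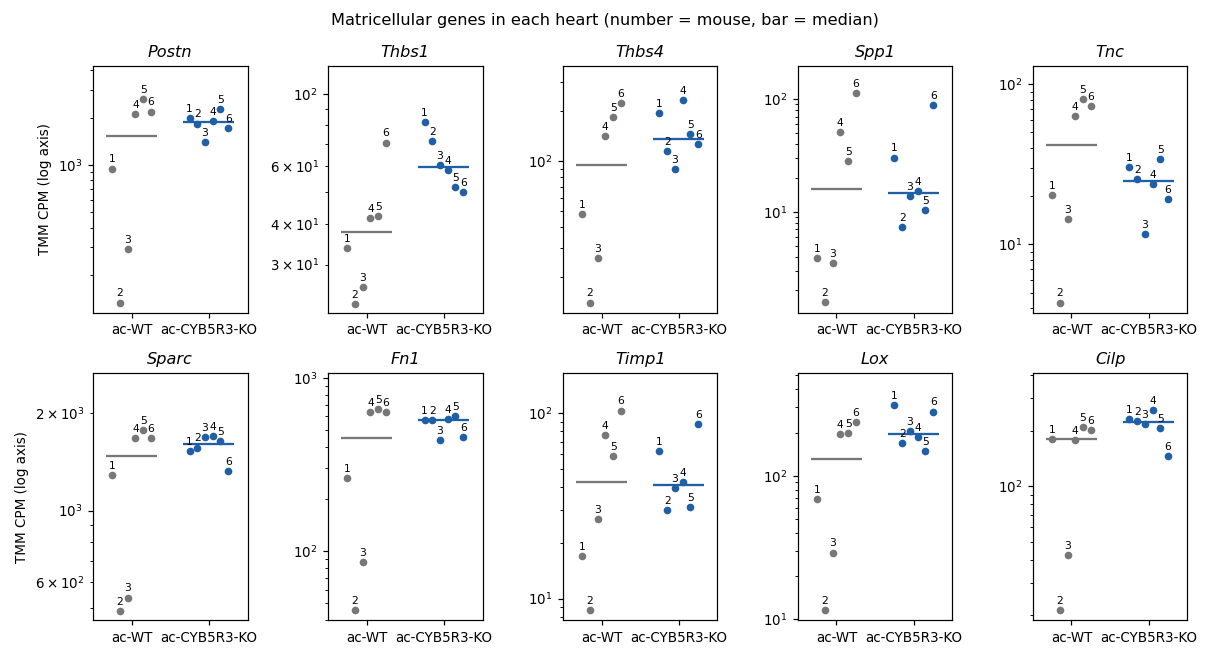
CPM of each gene (vertical log axis) in each heart, ac-WT in grey and ac-CYB5R3–KO in blue, with the mouse number above each point and the group's median as a bar. Control mouse 2 was the lowest of the 6 controls in all 10 panels, and all 6 knockout points lie within the span of the controls for Postn, Spp1, Tnc, Sparc, Fn1 and Timp1.

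The thrombospondins are matricellular glycoproteins that bind calcium, collagens and integrins, and thrombospondin 1 also activates latent TGF-β. Thbs1 was at 22.8 CPM in the lowest, 37.7 in the median and 70.9 in the highest ac-WT heart, and at 49.9, 59.6 and 81.7 in the ac-CYB5R3–KO hearts. Of the controls, 5 lay below every knockout heart and mouse 6, at 70.9 CPM, lay inside the knockout range, while 2 knockout hearts lay above the highest control. The log2 fold change was 0.66 ± 0.24 (SE, edgeR adjusted p = 0.244). It came to 0.91 without ac-WT mouse 6 (edgeR adjusted p = 0.0881) and to 0.42 ± 0.20 without mice 2 and 3 (edgeR adjusted p = 0.643).

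Thbs4, which is induced in loaded and injured heart and muscle, spread far more among the controls. Its lowest, median and highest values were 14.0, 94.2 and 225 CPM in ac-WT and 89.2, 136 and 233 CPM in ac-CYB5R3–KO hearts. Controls 1, 2 and 3, at 47.9, 14.0 and 26.1 CPM, were below every knockout heart, and controls 4, 5 and 6, at 141 to 225 CPM, were inside the knockout range. Its log2 fold change was 0.50 ± 0.55 (edgeR adjusted p = 0.683), and 0.030 ± 0.37 without mice 2 and 3.

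Postn encodes periostin, which binds integrins and promotes collagen fibre assembly. It was at 951, 133 and 293 CPM in controls 1, 2 and 3 and at 2099.7, 2638 and 2191 CPM in controls 4, 5 and 6. The knockout hearts lay between 1402 and 2263 CPM (median 1873). The highest control was thus 19.8 times the lowest, while in the knockout hearts this ratio was 1.61. A log2 fold change of 0.42 ± 0.54 (edgeR adjusted p = 0.737) became -0.073 ± 0.24 without mice 2 and 3.

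Fn1, encoding fibronectin, showed this pattern most fully, since 3 controls lay below and the other 3 above all 6 knockout hearts. Its values were 262.5, 45.5 and 86.2 CPM in controls 1, 2 and 3, and 634, 661 and 635 CPM in controls 4, 5 and 6. The knockout hearts stayed between 439 and 600.0 CPM (median 569). Over all mice the log2 fold change was 0.46 ± 0.52 (edgeR adjusted p = 0.689), and -0.020 ± 0.22 without mice 2 and 3, a fold of 0.986.

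Sparc encodes osteonectin, a collagen-binding protein needed for collagen processing. It was the most evenly expressed member in the knockout hearts, at 1321 to 1702 CPM (median 1603), with a coefficient of variation of 9.00%. In the controls it ran from 488 over a median of 1478 to 1776 CPM, with mice 2 and 3 the low ones at 488 and 538 CPM. For Sparc the log2 fold change was 0.35 ± 0.30 (edgeR adjusted p = 0.602), and -0.010 ± 0.12 without those mice, the smallest standard error of the 10 genes.

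Cilp, a matrix protein of cartilage and of cardiac fibroblasts that restrains TGF-β signalling, differed from the other 9 genes in that control mouse 1, at 181 CPM, lay above control 4, at 179 CPM. Controls 2 and 3 were at 21.2 and 42.2 CPM and the others at 179 to 210.4 CPM. The knockout hearts were at 146 to 258 CPM (median 222), and 4 of them lay above the highest control. In the fit the log2 fold change of Cilp was 0.62 ± 0.44 (edgeR adjusted p = 0.520), and 0.17 ± 0.14 without mice 2 and 3.

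Tnc, encoding tenascin C, which loosens adhesion between cells and matrix and appears at sites of injury, had a lower mean in the knockout hearts. It was at 4.33, 41.9 and 80.6 CPM in the lowest, median and highest control and at 11.6, 24.7 and 34.2 CPM in the knockout hearts. Controls 4, 5 and 6, at 63.6, 80.6 and 72.9 CPM, were all above the highest knockout heart, control 1 and control 3 were inside the knockout range, and control 2 was below it. Tnc had a log2 fold change of -0.83 ± 0.54 (edgeR adjusted p = 0.492) over all mice and -1.28 ± 0.35 without mice 2 and 3 (edgeR adjusted p = 0.344). Tnc thus kept its negative sign in both fits but passed the adjusted threshold in neither. Its log2 fold change was smaller with limma-voom, -0.30 (limma-voom adjusted p = 0.849), and with a block on replicate number, -0.40 (edgeR adjusted p = 0.715).

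Spp1 encodes osteopontin, an integrin-binding phosphoprotein made by activated macrophages and fibroblasts. It was the most variable gene, at 1.57, 16.1 and 114 CPM in the lowest, median and highest control and 7.27, 14.5 and 89.2 CPM in the knockout hearts. The highest value came from mouse 6 in each group, and these mice are different animals. The log2 fold change was -0.29 ± 0.91 (edgeR adjusted p = 0.900), and -0.82 ± 0.80 without mice 2 and 3. It ranged from -1.14 to 0.64 when each mouse in turn was left out, so the sign itself depended on single hearts.

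An enzyme and a protease inhibitor complete the 10 genes. Lox, encoding lysyl oxidase, had the largest positive log2 fold change, 0.82 ± 0.56 (edgeR adjusted p = 0.507). Its controls 1, 2 and 3 were at 69.0, 11.6 and 29.2 CPM and controls 4, 5 and 6 at 194, 198 and 236 CPM. The knockout hearts were at 149 to 313 CPM (median 195), with mice 1 and 6, at 313 and 280 CPM, above the highest control. Without mice 2 and 3 the log2 fold change of Lox was 0.33 ± 0.30 (edgeR adjusted p = 0.861). Timp1 had nearly the same mean in both groups, 48.6 ± 37.3 CPM in ac-WT and 48.7 ± 22.2 CPM in ac-CYB5R3–KO hearts (SD, n = 6 each). Its medians were 42.8 and 40.9 CPM, the controls ran from 8.63 to 103 CPM and the knockout hearts from 29.9 to 87.3 CPM. The log2 fold change was 0.0030 ± 0.50 (edgeR adjusted p = 0.999), and -0.38 ± 0.42 without mice 2 and 3.

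**Figure D2:**
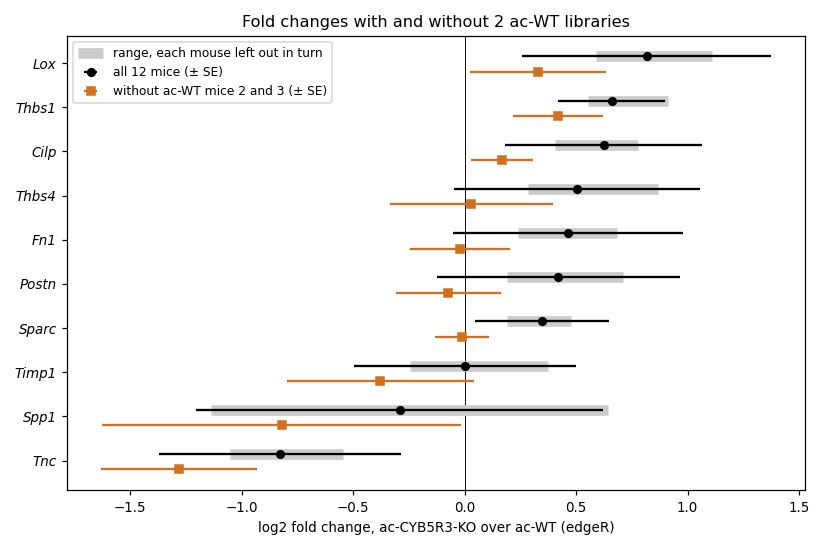
Log2 fold change of ac-CYB5R3–KO over ac-WT (horizontal axis) for each gene, with all 12 mice (black circles, ± SE) and without ac-WT mice 2 and 3 (orange squares, ± SE), and the range when each mouse was left out in turn (grey bands). Every orange square lies left of its black circle, and those of Postn, Sparc, Fn1 and Timp1 lie on the other side of 0 from their circles.

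The control hearts differed more from each other than the group means did. The highest control was 3.11 (Thbs1) to 72.7 (Spp1) times the lowest, while the fitted fold of ac-CYB5R3–KO over ac-WT ran from 0.564 (Tnc) to 1.76 (Lox). Mouse 2 was the lowest control for 10 of 10 genes, as it was for 24.5% of all genes tested, and mice 2 and 3 were the 2 lowest for 9 of 10 (21.1% of all genes). Controls 1, 2 and 3 each lay below controls 4, 5 and 6 for 9 of 10 genes, Cilp being the exception, against 15.2% of all genes. Measured against the knockout hearts, mouse 1 was below all 6 of them for 8 of the 10 genes (19.6% of all genes), mouse 2 for 10 (33.8%) and mouse 3 for 9 (32.2%). Controls 4, 5 and 6 were below all knockout hearts for 1, 1 and 0 genes (15.9%, 16.0% and 18.1% of all genes) and above all of them for 2, 4 and 4 genes (18.4%, 17.5% and 20.3% of all genes). The genes were chosen together as a fibroblast programme, so these 10 counts are not independent of one another.

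**Figure D3:**
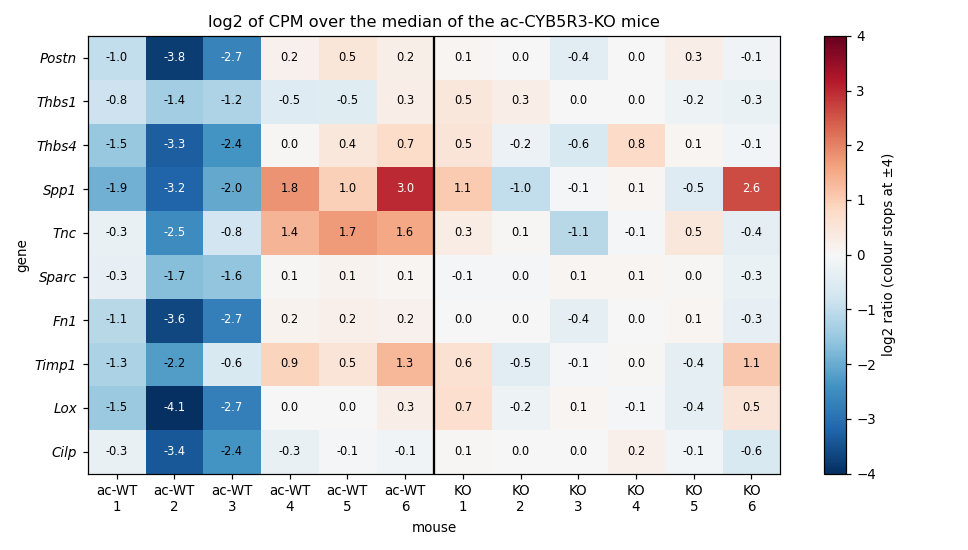
Log2 of the CPM of each gene in each heart over the median of the 6 ac-CYB5R3–KO hearts (columns are mice, rows are genes, blue is lower and red higher, the number is the log2 ratio). The columns of ac-WT mice 1, 2 and 3 are blue throughout, with mouse 2 the deepest, and the deepest red cells are those of Spp1 in mouse 6 of each group.

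The coefficient of variation between mice was larger in ac-WT than in ac-CYB5R3–KO hearts for 10 of 10 genes, and for 78.6% of all genes tested. Its median over the 10 genes was 76.9% in controls and 24.8% in knockout hearts, while the medians over all genes were 24.9% and 15.7%. In controls, 7 of the genes had a larger coefficient of variation than 95% of all genes tested, from Fn1 with 74.8% to Spp1 with 130%. Without mice 2 and 3 the median over the 10 genes in the controls was 39.1%. In the knockout hearts Sparc (9.00%), Fn1 (13.1%) and Postn (15.5%) were the steady ones, with less variation than the median gene of that group. Spp1 (113%), Timp1 (45.6%) and Thbs4 (35.5%) stayed variable there.

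**Figure D4:**
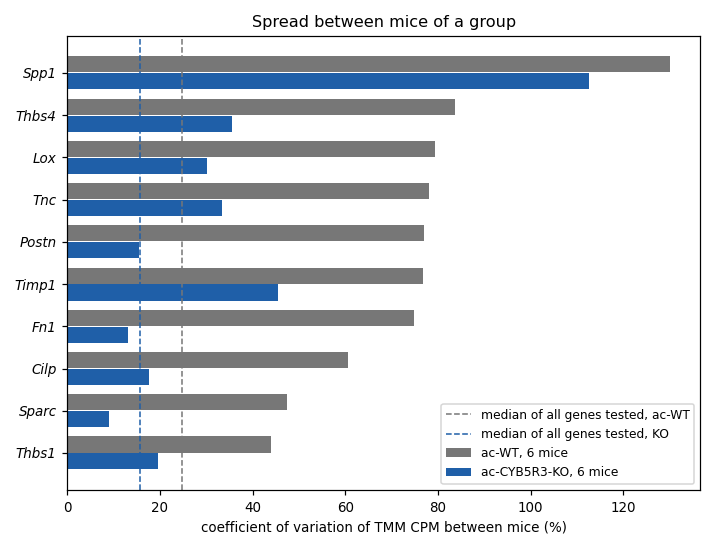
Coefficient of variation of CPM between the 6 mice of a group (horizontal axis, %), ac-WT in grey and ac-CYB5R3–KO in blue, with dashed lines at the median over all genes tested. The grey bar is the longer one for each of the 10 genes, and the blue bars of Sparc, Fn1 and Postn end left of the blue line.

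Within the knockout hearts the 10 genes did not vary as 1 block. Over the 6 mice, Pearson's r of log2 CPM between pairs of the genes ran from -0.813 to 0.986, with a median of 0.165 over 45 pairs. The pairs with the closest likeness were Spp1 with Timp1 (0.986), Postn with Tnc (0.977) and Timp1 with Lox (0.904), and Spp1 with Sparc was the most opposed (-0.813). Spp1 and Timp1 were both highest in knockout mouse 6, at 89.2 and 87.3 CPM, while Sparc and Cilp were both lowest in it, at 1321 and 146 CPM. The points of each pair share the libraries and their depth, and with 6 mice these coefficients are descriptions only.

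Levels can be compared between genes only per length, here as CPM per kilobase of annotated exon. In the knockout hearts Sparc had the highest level per length, 468 (range 392 to 506), followed by Postn with 236 (179 to 289), and these ranges did not overlap. Fn1 (64.1), Timp1 (54.9), Cilp (49.9), Lox (46.1) and Thbs4 (45.9) followed with ranges that overlapped between neighbours. Spp1 (16.8), Thbs1 (10.3) and Tnc (3.21) were lowest, with Spp1 ranging from 4.41 to 54.1 and Thbs1, at 8.22 to 13.5, not overlapping Tnc, at 1.54 to 4.56. In the controls the first and the last were again Sparc (368, range 145 to 527) and Tnc (5.69, range 0.577 to 10.7), and all neighbours overlapped. The transcripts of Fn1 and Tnc share 292 and 176 exonic bases with an annotated gene on the opposite strand (Apol7d and 8030451A03Rik) and Timp1 lies within Syn1 on the opposite strand with 0 shared exonic bases. The strand setting of the counting was not given in the sources used here, so reads of these partners could not be separated.

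Of the genes on 14 further lists, 1 passed an adjusted p under 0.05, the SPARC relative Smoc1, where 0.101% of all genes tested did. Over all genes tested, 4.59% had an unadjusted p under 0.01 and 1.55% showed no overlap of the groups. Of 25 listed paralogs of the 10 genes 18 were tested, and their median log2 fold change was 0.21 (-0.050 without mice 2 and 3). Smoc1, a calcium-binding matrix protein, was at 6.04 ± 1.02 CPM in ac-WT and 12.3 ± 3.09 CPM in ac-CYB5R3–KO hearts and rose by 1.03 ± 0.17 (SE) on the log2 scale (edgeR adjusted p = 0.0476). Leaving out mice 2 and 3 gave a log2 fold change of 1.12 (edgeR adjusted p = 0.0878), and its controls, at 4.29 to 7.27 CPM, stayed below the knockout hearts, at 8.24 to 17.3 CPM. Tnxb, the tenascin of loose connective tissue, was at 61.7 ± 28.5 and 20.1 ± 4.72 CPM (log2 fold change -1.62 ± 0.29, edgeR adjusted p = 0.0553, and -1.20 without mice 2 and 3, edgeR adjusted p = 0.140). Its controls 2 and 3 were the highest at 86.2 and 98.0 CPM, the reverse of their place in Tnc. Comp, the thrombospondin of cartilage and tendon, was at 16.2 ± 11.8 and 73.5 ± 21.9 CPM (log2 fold change 2.17 ± 0.50, edgeR adjusted p = 0.144, and 1.71 without mice 2 and 3, edgeR adjusted p = 0.0769), with every control, at most 34.5 CPM, below every knockout heart, at least 37.0 CPM.

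On the lists of further matrix proteins, proteases and receptors, 0 genes passed the adjusted threshold. Of 31 further matricellular proteins and matrix glycoproteins 30 were tested, with a median log2 fold change of 0.29 (0.034 without mice 2 and 3) and 1 gene at an unadjusted p under 0.01 (4.59% of all genes). This was Fbln5, an elastic fibre protein, at 81.7 ± 44.0 CPM in ac-WT and 168 ± 35.0 CPM in ac-CYB5R3–KO hearts (edgeR adjusted p = 0.211). Of 28 matrix proteases 27 were tested and 0 had an unadjusted p under 0.01, with a median log2 fold change of 0.055 (-0.091 without mice 2 and 3). All 18 listed receptors of the 10 proteins were tested, with a median of 0.094 (-0.017 without mice 2 and 3) and 1 gene at an unadjusted p under 0.01, a count near the share of all genes (4.59%). This was Itga9, the integrin subunit that binds tenascin C and osteopontin, at 34.8 ± 5.53 and 50.4 ± 6.01 CPM (log2 fold change 0.53 ± 0.12, edgeR adjusted p = 0.144), with every knockout heart, at least 45.0 CPM, above every control, at most 40.3 CPM. No overlap of the groups was seen for 1.55% of all genes.

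Of the tested markers of activated fibroblasts other than the 10 genes, control 2 was the lowest control for 18 of 24, and controls 1, 2 and 3 each lay below controls 4, 5 and 6 for 19 of 24, against 24.5% and 15.2% of all genes. Acta2 was an exception, with 105 and 114 CPM in controls 2 and 3 and 78.9 CPM in control 4. Of 25 such markers 24 were tested, 0 passed the adjusted threshold, and the median log2 fold change was 0.49 (0.12 without mice 2 and 3). At an unadjusted p under 0.01 there were 3 with a positive and 1 with a negative fold change, against 4.59% of all genes in either direction. The positive ones were Comp, the tendon transcription factor Scx (8.89 ± 2.20 and 16.8 ± 4.47 CPM, edgeR adjusted p = 0.144) and the growth factor Tgfb2 (17.8 ± 8.81 and 38.8 ± 11.6 CPM, edgeR adjusted p = 0.186). The negative one was Acta2, the smooth muscle actin of myofibroblasts, at 97.0 ± 30.4 and 52.2 ± 8.47 CPM (log2 fold change -0.89 ± 0.20, edgeR adjusted p = 0.144). The summed CPM of these markers, led by Col3a1, Col1a2 and Col1a1, was 5342, 1820 and 2327 in controls 1, 2 and 3, 8731 to 9898 in controls 4, 5 and 6, and 6795 to 8561 in the knockout hearts. That of the 10 genes themselves was 2869, 751 and 1085, then 5152 to 5878, and 4168 to 5132 in the knockout hearts.

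General fibroblast markers did not show this order in full. By gene, control 2 was the lowest control for 3 of 15, and controls 1, 2 and 3 each lay below controls 4, 5 and 6 for 2 of 15 (24.5% and 15.2% of all genes). All 15 were tested, 0 passed the adjusted threshold, and the median log2 fold change was -0.12 (-0.23 without mice 2 and 3). Their sum was 2135 to 3688 CPM in ac-WT and 2194 to 3237 CPM in ac-CYB5R3–KO hearts. Controls 2 and 3, at 2594 and 2135, had the lowest sums of the controls here too, while control 1, at 3236, was above controls 4 and 6. The 3 at an unadjusted p under 0.01 (4.59% of all genes) had negative fold changes. They were the ferritin receptor Scara5 (13.7 ± 7.90 and 2.98 ± 1.47 CPM, edgeR adjusted p = 0.102), the actin-severing protein Gsn (469 ± 155 and 264 ± 35.3 CPM, edgeR adjusted p = 0.170) and the serine protease Htra3 (123 ± 21.8 and 71.6 ± 27.8 CPM, edgeR adjusted p = 0.184).

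Markers of macrophages were low in the same controls as the 10 genes, while those of cardiomyocytes and of endothelium were not. All 17 macrophage and monocyte markers were tested, with 0 at an unadjusted p under 0.01 and a median log2 fold change of -0.056 (-0.39 without mice 2 and 3). Their sum was 809, 521 and 579 CPM in controls 1, 2 and 3, 1880 to 2065 CPM in controls 4, 5 and 6, and 901 to 1527 CPM in the knockout hearts, where mouse 6 was the highest, and 0 of the 17 were at 0 in every library. Cardiomyocyte markers ran the other way in mice 2 and 3, whose sums were 55315 and 43940 CPM against 24430 to 27955 CPM in the other controls and 17851 to 31294 CPM in the knockout hearts. All 12 were tested, with a median log2 fold change of -0.38 (-0.15 without mice 2 and 3), and Tnni3, Myl2 and Myl3 had an unadjusted p under 0.01 (4.59% of all genes) with edgeR adjusted p-values of 0.184, 0.184 and 0.211. Without mice 2 and 3, 2 of the 12 had an unadjusted p under 0.01 (2.33% of all genes). All 10 endothelial markers were tested, with 0 at an unadjusted p under 0.01, a median of -0.015 (0.096 without mice 2 and 3) and sums of 940, 625 and 759 CPM in controls 1, 2 and 3, 493 to 569 CPM in controls 4, 5 and 6, and 481 to 854 CPM in the knockout hearts, so that controls 1, 2 and 3 were the high ones here. The part of cell composition, of macrophage markers and of the cardiomyocyte share in the values of the 10 genes was not tested.

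**Figure D5:**
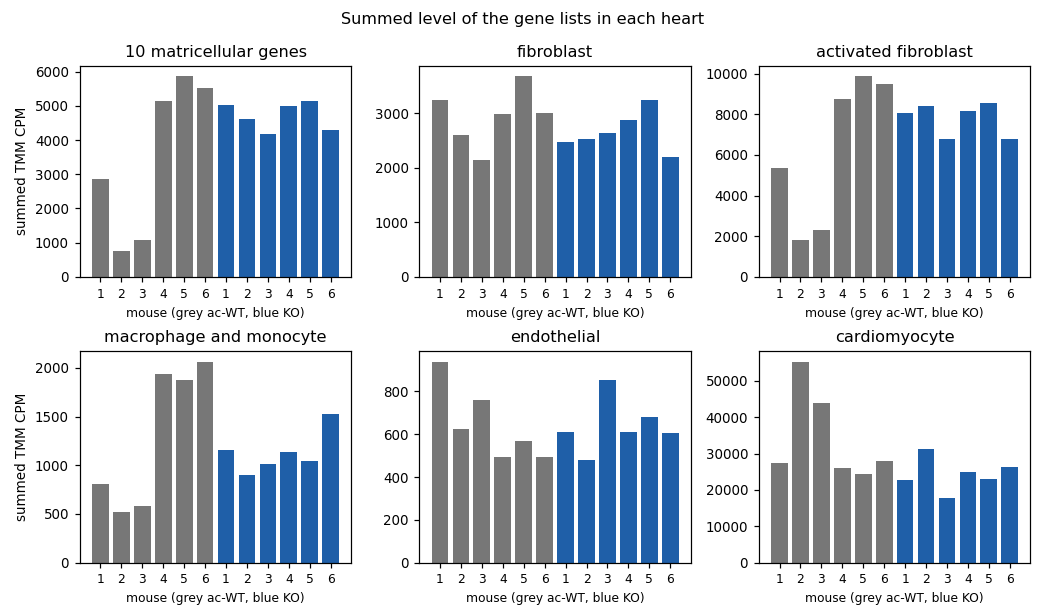
Summed CPM (vertical axis, from 0) of the 10 genes and of 5 marker lists in each heart, ac-WT in grey and ac-CYB5R3–KO in blue. The bars of the 10 genes, of activated fibroblast markers and of macrophage markers are low in ac-WT mice 1, 2 and 3, while the cardiomyocyte bars are highest in ac-WT mice 2 and 3.

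The genes whose pattern over the 12 libraries was most like that of Thbs1, the gene of the 10 with the lowest p, were Gm11382 (Pearson's r 0.960, Spearman's rho 0.937), the water channel gene Aqp5 (0.949, 0.858) and Calu, which encodes a calcium-binding protein of the secretory pathway (0.947, 0.895). These coefficients were the highest of all genes tested, were chosen for that, and describe these libraries only.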

How the data were processed

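The authors trimmed the reads and mapped them with STAR, and deposited unnormalized counts, whole numbers of reads, for 53700 Ensembl gene identifiers and 12 libraries. Libraries came from total RNA with a stranded kit. The methods name the genome build mm9, while the submitters' processing notes name GRCm39 and featureCounts. The build therefore could not be settled, and the strand setting and annotation release of the counting are not given in the sources used here. Gene symbols were found for 57.8% of identifiers.

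Counts were filtered with filterByExpr (minimum count 10), scaled by TMM and tested in edgeR (version 4.0.16, R 4.3.3) by the quasi-likelihood test, two-sided, without covariates and with Benjamini-Hochberg adjustment over 17847 genes. The common biological coefficient of variation, the fitted spread between mice beyond counting error, was 26.5%. The steps were tested on simulated data. Exon lengths came from GENCODE M1 (NCBIM37) and served for levels per kilobase only. Alternatives were DESeq2 (version 1.42.0), limma-voom (version 3.58.1), other scalings and filters, a replicate block, leaving out each mouse, and leaving out both ac-WT mice of lowest TMM factor.

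The 10 genes and the 14 further gene lists were chosen with earlier results of these data known. From each further list at most 4 genes were named for their difference, first those with an adjusted p under 0.05, then those with an unadjusted p under 0.01, in order of p. Col3a1, Col1a2 and Col1a1 were named only as the largest parts of a summed level, and Scgb1a1 and Sftpc only as not tested. For likeness, the 3 genes with the highest Pearson's r to the gene of lowest p were named. Groups and replicate numbers came from the sample labels.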

Additional observations from a re-analysis of the deposited data

Results flagged for a closer look

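In 48 groups of 6 values (each of the 10 genes and each marker sum in each genotype), the gap between an extreme value and its neighbour was set against the whole range by Dixon's rule, which chance exceeds in about 1 in 20 groups. It was exceeded in 2. Spp1 was at 89.2 CPM in ac-CYB5R3–KO mouse 6 and at 30.3 CPM in the next highest knockout heart, a gap of 0.719 of the range. The summed level of the platelet and megakaryocyte markers was 98.3 CPM in ac-WT mouse 3 and 51.4 CPM in the next highest control, a gap of 0.641 of the range.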

How the results depend on the processing

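For the 10 genes, 0 passed an adjusted p under 0.05 in edgeR under each alternative run, with DESeq2 and with limma-voom, and the lowest adjusted p over all of them was 0.0881 (Thbs1 without ac-WT mouse 6). The count at an unadjusted p under 0.01 was 0 as reported and 1 with DESeq2, with limma-voom, without a filter on low counts and without ac-WT mice 2 and 3, and ran from 0 to 1 when each mouse was left out. The gene was Thbs1, with a positive fold change, with DESeq2, with limma-voom, without a filter and without ac-WT mouse 6. Without ac-WT mice 2 and 3 it was Tnc, with a negative fold change. At an unadjusted p under 0.05 the count was 1 as reported, against 14.6% of all genes tested, and 2 with limma-voom and with a replicate block. It was 1 to 2 when each mouse was left out, and the share of all genes at this threshold was not counted for the alternatives. The block was made although same-numbered mice are different animals. Their deviations correlated at 0.144 on average (-0.0806 to 0.353 over 6 pairs, against -0.0282 over the other 30). In 6 of 12 samples the best correlation was with the own number. Whether same-numbered hearts were handled together is not given by the labels. The number of genes with a positive fold change was 8, 9 with limma-voom and with the replicate block, 4 without ac-WT mice 2 and 3, and 7 to 9 when each mouse was left out. Their median log2 fold change of 0.44 was 0.91 with limma-voom, 0.85 with the block, -0.015 without ac-WT mice 2 and 3, and 0.22 to 0.68 when each mouse was left out. The log2 fold change changed sign without those mice for Postn (-0.073), Sparc (-0.010), Fn1 (-0.020) and Timp1 (-0.38). That of Timp1 ran from -0.25 to 0.37 when each mouse was left out, with -0.17, -0.20 and -0.11 without ac-WT mice 1, 2 and 3 and -0.079 and -0.25 without ac-CYB5R3–KO mice 1 and 6. Spp1 gave 0.47 with limma-voom, 0.52 with the block and 0.64 without ac-WT mouse 6 (-1.14 to 0.64 over all mice left out). The median coefficient of variation in the controls was 76.9%, and 39.1% without mice 2 and 3. Over all genes, 18 passed an adjusted p under 0.05 as reported, 437 with DESeq2, 2 with limma-voom, 8 with total counts, 8 with DESeq2 size factors in edgeR, 35 without a filter, 2 with the replicate block, 7 without ac-WT mice 2 and 3, and 2 to 38 when each mouse was left out. At an unadjusted p under 0.01 there were 820 as reported, 1238 with DESeq2, 681 with limma-voom, 1153 without a filter and 672 with the replicate block. There were 426 with total counts, 426 without both mice, and 463 to 1169 when each mouse was left out. Total counts in place of TMM moved the all-gene median log2 fold change from -0.0074 to 0.26. The cause of these changes was not tested. How far depth or the spread between 6 mice limited what could be seen was not tested either.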

Other observations

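Genes of cartilage, tendon and airway were the list with the highest median log2 fold change, and the airway genes on it, Scgb1a1 and Sftpc, did not pass the filter on low counts. Of 15 listed genes 8 were tested, 6 with a positive and 2 with a negative log2 fold change and a median of 1.20 (0.97 without ac-WT mice 2 and 3). Of these, 3 had an unadjusted p under 0.01 (4.59% of all genes), with a positive fold change, and 0 passed the adjusted threshold over all mice. Col11a1, a fibril collagen of cartilage and tendon, was at 4.18 ± 3.26 CPM in ac-WT and 27.2 ± 6.32 CPM in ac-CYB5R3–KO hearts (SD, n = 6 each, log2 fold change 2.68 ± 0.59 SE, edgeR adjusted p = 0.144). Without ac-WT mice 2 and 3 its edgeR adjusted p was 0.00196. Its controls reached at most 7.82 CPM and its knockout hearts were at 21.1 to 36.5 CPM. Col9a2 was at 8.25 ± 5.09 and 25.1 ± 9.66 CPM (edgeR adjusted p = 0.194) and Col2a1, close to the limit of detection, at 0.111 ± 0.147 and 0.602 ± 0.266 CPM (edgeR adjusted p = 0.173). The sum of the list was 6.11 to 38.3 CPM in ac-WT and 45.2 to 84.0 CPM in ac-CYB5R3–KO hearts, with no overlap.

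The other lists passed no gene at the adjusted threshold. All 12 vascular smooth muscle and pericyte markers were tested, 4 with a positive and 8 with a negative log2 fold change and a median of -0.23 (-0.14 without ac-WT mice 2 and 3). At an unadjusted p under 0.05, 3 were positive and 5 negative (14.6% of all genes in either direction). Myh11, the smooth muscle myosin, was the 1 gene at an unadjusted p under 0.01 (4.59% of all genes), at 20.8 ± 10.5 and 10.9 ± 1.29 CPM (log2 fold change -0.93, edgeR adjusted p = 0.184). Controls 2 and 3 held its highest values, 34.4 and 33.9 CPM, and without them its log2 fold change was -0.36 (edgeR adjusted p = 0.460). Of 10 platelet and megakaryocyte markers 9 were tested, with a median of -0.45 that became 0.32 without ac-WT mice 2 and 3. All 10 mesothelial and epicardial markers were tested, with a median of -0.30 (-0.65 without those mice). Of 8 adipocyte markers 0 passed the filter on low counts, and the highest count of any of them in a library was 82.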
